A study of Mus musculus with 6 samples.

Results

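The genes described here belong to the bone morphogenetic protein (BMP) pathway, from a secreted ligand to the genes that it switches on. They were chosen by name, as every array probe annotated to Bmp1, Bmp4, Bmpr1a, Id1, Id2, Id3, Smad6, Smad7, Msx1 or Msx2. Of these 10 genes, 8 had a named probe, with 13 probes among the 45281 on the array, and Smad7 and Msx2 had none here. All 13 probes passed the filter on dim signals and were tested. The rule uses names alone, but the genes were proposed with earlier results of these data known.

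Total RNA was compared between 2 immortalized mouse cell lines, with 3 arrays labelled posterior and 3 labelled anterior. Both lines were described as mesenchyme of the limb bud at E10.5, a stage when the limb bud is being patterned, 1 from its posterior and 1 from its anterior part, and both carried a temperature-sensitive SV40 T antigen, a viral product that immortalizes cells. The labels name 1 line per position, so the position of origin and any other property of a line cannot be told apart. Whether the 3 arrays of a line hold independent cultures is not given in the labels, and p-values cover no more than the scatter among these arrays, part of which may be technical. The posterior arrays detected 17784 to 18657 probes and the anterior arrays 16052 to 17705, and across the tested probes arrays of different lines correlated at 0.882 to 0.905 and arrays of 1 line at 0.971 to 0.989.

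The markers went against the label of the anterior arrays. These arrays carried high levels of genes that mark pluripotent stem cells. Esrrb lay at 8.33 ± 0.37 in posterior and 12.76 ± 0.15 in anterior, Zfp42 at 7.82 ± 0.20 in posterior and 11.91 ± 0.17 in anterior, and Pou5f1 at 6.82 ± 0.43 in posterior and 11.62 ± 0.12 in anterior (log2 intensity, SD, n = 3 each). All 12 such markers were lower in posterior, where Tdgf1 and Fgf4 were detected on no array. Tcl1 was 63.0-fold lower, Pou5f1 27.8-fold, Esrrb 21.6-fold, Utf1 18.7-fold and Zfp42 17.0-fold. Dppa5a and Dppa4 were 1.69-fold and 2.15-fold lower and were high on all arrays, at 13.60 and 11.17 in posterior and at 14.36 and 12.28 in anterior. Summed background-corrected intensities of the 12 markers, in which the bright Dppa5a weighs most, were 13041 to 18804 in posterior and 45578 to 46740 in anterior. Of 5 limb bud mesenchyme markers with a named probe, Twist1, Pdgfra and Tbx4 were higher in posterior and Fgf10 and Snai1 did not pass. Among all tested genes 25.9% were higher in posterior and 21.5% lower. The sums of the 5 limb markers were 251 to 446 in posterior and 96.9 to 123 in anterior, where no array detected Pdgfra and 1 of 3 detected Tbx4. Whether the anterior arrays hold the limb mesenchyme that their label names is in doubt. The markers did not settle the posterior label either, since 9 of the 12 pluripotency markers were detected on all 3 posterior arrays. Posterior and anterior stand below for the arrays so labelled.

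BMP ligands are secreted proteins that bind a pair of receptor types at the cell surface. The activated receptors phosphorylate SMAD1, SMAD5 and SMAD9, which enter the nucleus with SMAD4 and switch on target genes. The best known targets are the Id genes, whose products hold E proteins away from DNA, the inhibitory Smad genes, whose products damp the pathway in a feedback loop, and the Msx homeobox genes. In the limb bud the pathway takes part in patterning, in outgrowth through the apical ridge and in the death of cells between the digits. Bmp1 shares the name but not the function, since it encodes a tolloid metalloprotease that cleaves procollagen and the BMP antagonist chordin.

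Promoter sequences are shown for 6 members, because target genes of the pathway are known to be switched on by SMAD proteins. Promoters from the RefSeq table of build GRCm38.p6 were searched for 7 of the 10 members. Those of Id1, Bmp1 and Smad7 were not searched. Capitals mark the letters of 2 searched motifs, each of which reads the same on both strands and does not overlap the other. GTCTAGAC is the palindrome bound by SMAD proteins, and GGCGCC is a GC-rich core known from BMP response elements. The search covered 250 bases before and 50 bases after each annotated start site. The stretches below are 150 bases long, 5′ to 3′, and all but that of Smad6 lie wholly before the start site. They are chr12:25096193-25096342 (minus strand), chr14:34502647-34502796 (minus strand), chr9:64022050-64022199 (minus strand), chr4:136143672-136143821 (plus strand), chr5:37824586-37824735 (minus strand) and chr14:46390670-46390819 (minus strand).
Id2: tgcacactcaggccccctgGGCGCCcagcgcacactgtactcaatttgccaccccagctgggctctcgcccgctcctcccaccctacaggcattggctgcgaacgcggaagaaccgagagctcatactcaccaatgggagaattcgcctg
Bmpr1a: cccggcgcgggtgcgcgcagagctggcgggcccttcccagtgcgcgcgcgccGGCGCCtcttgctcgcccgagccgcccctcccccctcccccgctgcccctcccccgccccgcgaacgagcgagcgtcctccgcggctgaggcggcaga
Smad6: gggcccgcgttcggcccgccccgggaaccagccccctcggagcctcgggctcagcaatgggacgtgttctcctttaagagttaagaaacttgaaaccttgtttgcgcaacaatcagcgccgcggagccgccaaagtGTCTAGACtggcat
Id3: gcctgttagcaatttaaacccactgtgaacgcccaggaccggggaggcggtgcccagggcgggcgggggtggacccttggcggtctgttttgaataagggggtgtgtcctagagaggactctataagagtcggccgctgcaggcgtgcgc
Msx1: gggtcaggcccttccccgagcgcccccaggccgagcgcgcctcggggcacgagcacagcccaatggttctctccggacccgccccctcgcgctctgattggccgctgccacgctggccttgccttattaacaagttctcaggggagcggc
Bmp4: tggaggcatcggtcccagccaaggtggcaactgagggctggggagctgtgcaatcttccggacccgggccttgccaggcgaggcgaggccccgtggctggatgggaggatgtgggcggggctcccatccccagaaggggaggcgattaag

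Smad6 holds GTCTAGAC across its annotated start site, from base -4 to base 4, and 0.213% of the 32851 promoters in the table hold this motif. Id2 holds GGCGCC at bases -231 to -226 and Bmpr1a at bases -198 to -193, a motif found in 11.9% of those promoters. The promoters of Id3, Msx1, Msx2 and Bmp4 held neither motif in this window. Elements farther away were not searched, and a relation between the motifs and the changes in level was not tested.

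Bmp4 and the target genes Id1, Id2, Id3 and Msx1 changed in opposite directions. Bmp4 was 3.94-fold lower in the line labelled posterior than in the line labelled anterior, while Id1, Id2, Id3 and Msx1 were 2.48-fold, 2.31-fold, 3.19-fold and 4.29-fold higher. The receptor gene Bmpr1a and the protease gene Bmp1 were also higher, and Smad6, also a target gene, did not pass the threshold. Other ligand genes went both ways, with Bmp7 2.82-fold higher and Gdf3 10.2-fold lower. Of the further BMP-responsive genes detected on all 6 arrays, Tbx3 was 3.17-fold lower and Hey1 and Msx3 did not pass. Each gene was represented by its brightest tested probe and compared with limma at an adjusted p under 0.05 over all 18242 tested probes. By this rule 6 of the 8 genes were higher and 1 was lower. Of all 9908 tested genes 25.9% were higher and 21.5% lower, 47.4% in all, so that a call by itself does not set a gene apart in this comparison. The median difference of the 8 genes was 1.39 on the log2 scale, against 0.03 for all tested genes. The groups did not overlap for 7 of the 8 genes, as for 58.3% of all tested genes. The arrays hold bulk RNA, in which fewer cells of a type and less RNA per cell cannot be told apart.

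**Figure D1:**
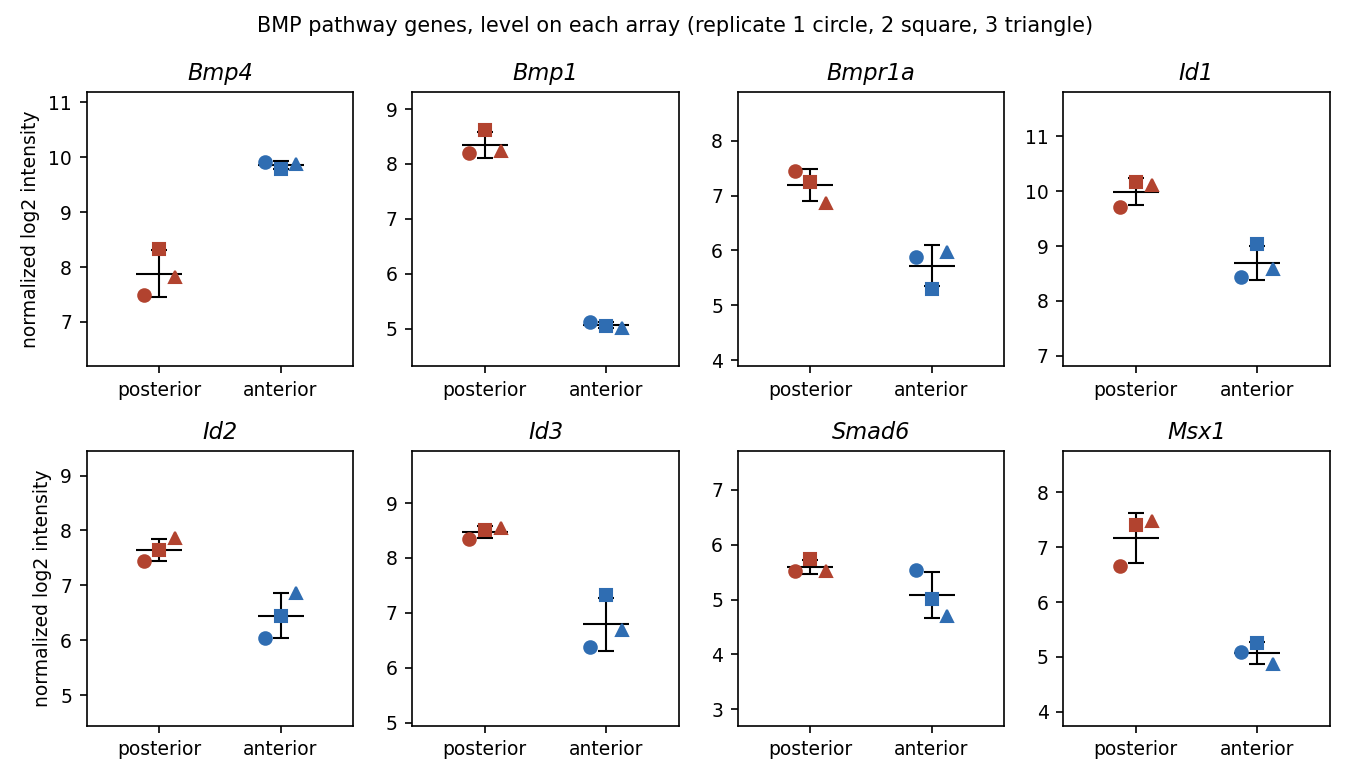
Level of the 8 genes on each array, as normalized log2 intensity, with posterior on the left and anterior on the right of every panel. Points are single arrays, the horizontal line is the mean and the bar 1 SD (n = 3), and every panel spans the same number of log2 units. Bmp4 is the gene whose posterior points lie below the anterior ones, and the groups overlap only for Smad6.

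Bmp4 encodes a ligand of the pathway that is made in the limb bud mesenchyme and ridge. Its brighter probe had deposited intensities of 285, 367 and 261 on the posterior arrays, against 804, 1114 and 907 on the anterior arrays. After normalization the levels were 7.49, 8.34 and 7.81 on the log2 scale in posterior and 9.92, 9.78 and 9.87 in anterior. All posterior arrays lay below all anterior arrays, and the posterior arrays were the more spread out (SD 0.43, against 0.07 in anterior). The difference was -1.98 (SE 0.21, adjusted p = 0.000141 in limma), with a 95% interval of -2.46 to -1.50.

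The dimmer Bmp4 probe showed the same direction at a lower signal. Its levels were 4.68, 4.51 and 4.78 in posterior and 6.96, 6.52 and 6.89 in anterior, a difference of -2.13 (SE 0.16, adjusted p = 2.32e-05 in limma). It was detected, at a detection p-value under 0.05, on 1 of 3 posterior arrays and on all 3 anterior arrays. Without background correction the difference of this probe was -1.16. In the authors' log2 values the brighter probe lay at 7.80, 8.51 and 8.06 in posterior and at 9.97, 9.84 and 9.93 in anterior, a difference of -1.79.

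Bmpr1a, which encodes a type I receptor for BMP ligands, was higher in posterior while Bmp4 was lower. Its levels were 7.45, 7.25 and 6.87 in posterior and 5.89, 5.29 and 5.98 in anterior. The groups did not overlap, and the difference was 1.47 (SE 0.22, adjusted p = 0.00103 in limma), a 2.77-fold change. Without background correction the log2 difference was 0.95. The second probe differed by 1.10 (SE 0.34, adjusted p = 0.0307 in limma), with 2 of 3 anterior arrays detecting it. Without anterior replicate 2, the array that did not, the difference was 0.65, and without background correction it was 0.61. For that probe the call was lost without posterior replicate 1 (adjusted p = 0.0770 in limma) or posterior replicate 2 (0.0939), and when dim probes were not filtered (0.142).

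Bmp1 had the largest change of the 8 genes. Its brightest probe lay at 8.19, 8.62 and 8.23 in posterior and at 5.12, 5.05 and 5.01 in anterior, a 9.78-fold change (log2 3.29, SE 0.15, adjusted p = 2.18e-06 in limma). The anterior levels were close to the lowest detected signals of those arrays, which were 4.76 to 4.91, and the size depended on the background correction. The log2 difference was 2.23 without it, 2.22 in the authors' values and 2.42 with an offset of 50. The other 2 probes had smaller differences of 1.68 and 1.67, and 1 of them was detected on no anterior array. This makes it at least 2.83-fold higher on the background-corrected scale with an offset of 16. The log2 difference of that probe was 0.85 without background correction, 0.81 in the authors' values and 0.95 with an offset of 50. All 3 probes thus agreed on the direction and not on the size, and the mean of the probes gave a log2 difference of 2.21.

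**Figure D2:**
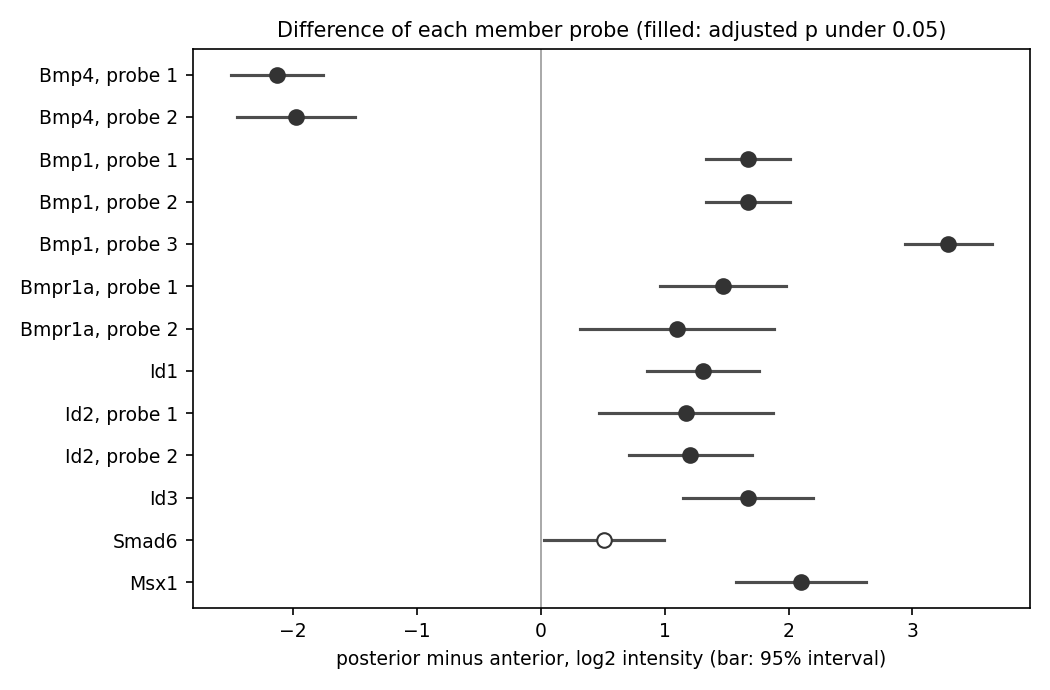
Difference between posterior and anterior for each of the 13 probes, in log2 intensity. Points are the estimates of the limma fit, bars their 95% intervals, and filled points passed an adjusted p of 0.05. Both Bmp4 probes lie left of 0, and the other 11 lie right of it, with Smad6 as the open point.

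The 3 Id genes encode small helix-loop-helix proteins without a DNA-binding region, which pair with E proteins and keep them inactive. Id1 lay at 9.71, 10.16 and 10.10 in posterior and at 8.43, 9.03 and 8.59 in anterior. Its difference was 1.31 (SE 0.20, adjusted p = 0.00100 in limma), with a 95% interval of 0.86 to 1.76. Every posterior array was above every anterior array, and the highest anterior level was on replicate 2.

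Id3 had the largest difference among the Id genes, but the intervals of the 3 genes overlapped. Its levels were 8.35, 8.50 and 8.55 in posterior and 6.37, 7.32 and 6.69 in anterior, with a difference of 1.67 (SE 0.23, adjusted p = 0.000592 in limma). The posterior arrays spread over 0.11 (SD) and the anterior arrays over 0.48 (SD), and anterior replicate 2 was again the highest of its group.

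Id2 was measured by 2 probes with nearly the same result. The brighter probe lay at 7.45, 7.64 and 7.85 in posterior and at 6.03, 6.44 and 6.85 in anterior, a difference of 1.21 (SE 0.22, adjusted p = 0.00247 in limma). Its difference was 0.88 both without background correction and in the authors' values. The dimmer probe, undetected on 1 of 3 anterior arrays, had a difference of 1.17 (SE 0.31, adjusted p = 0.0146 in limma), and of 0.65 without background correction. Among anterior arrays Id2 was highest on replicate 3, unlike Id1 and Id3.

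Msx1 encodes a homeobox repressor that marks distal limb mesenchyme, where it is known to respond to BMP signals. Its deposited intensities were 181, 217 and 217 on the posterior arrays, against 77.8, 82.4 and 72.2 on the anterior arrays. The normalized levels were 6.65, 7.40 and 7.47 in posterior and 5.09, 5.26 and 4.87 in anterior, without overlap. The difference was 2.10 (SE 0.23, adjusted p = 0.000169 in limma), with a 95% interval of 1.58 to 2.63. Anterior arrays detected Msx1 only just, at detection p-values of 0.0107 to 0.0299, and its log2 difference was 1.26 both without background correction and in the authors' values.

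Smad6 encodes an inhibitory SMAD that binds the activated receptor and SMAD1. It lay at 5.52, 5.75 and 5.51 in posterior and at 5.54, 5.01 and 4.70 in anterior, so that anterior replicate 1 lay within the posterior range. The difference was 0.51 (SE 0.21, adjusted p = 0.0856 in limma), with a 95% interval of 0.02 to 0.997 before any adjustment. It passed without anterior replicate 1 (log2 0.74, adjusted p = 0.0155 in limma) and with the arrays scaled to a common median of all probes (log2 0.74, adjusted p = 0.0226 in limma). Over these and the other alternatives its log2 difference ran between 0.22 and 0.74.

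Levels of different probes cannot be set against each other, so ligand and targets were compared by their changes on each array. Relative to its anterior mean, Bmp4 had deviations of -2.37, -1.52 and -2.05 log2 units on posterior replicates 1, 2 and 3. On the same arrays Id1 had deviations of 1.02, 1.48 and 1.42, Id3 of 1.55, 1.71 and 1.76, and Msx1 of 1.58, 2.32 and 2.40. The array with the lowest Bmp4, posterior replicate 1, also had the lowest Id1, Id2, Id3 and Msx1 of its group. Bmp1 was lowest on that array too, and Bmpr1a was highest. The order of the other posterior arrays was not shared, with Bmp4 and Id1 highest on replicate 2 and Id2, Id3 and Msx1 on replicate 3. Relations between the genes within a group were not tested. The interval of Bmp4 lay wholly below 0, and those of Id1, Id2, Id3 and Msx1 lay wholly above it.

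**Figure D3:**
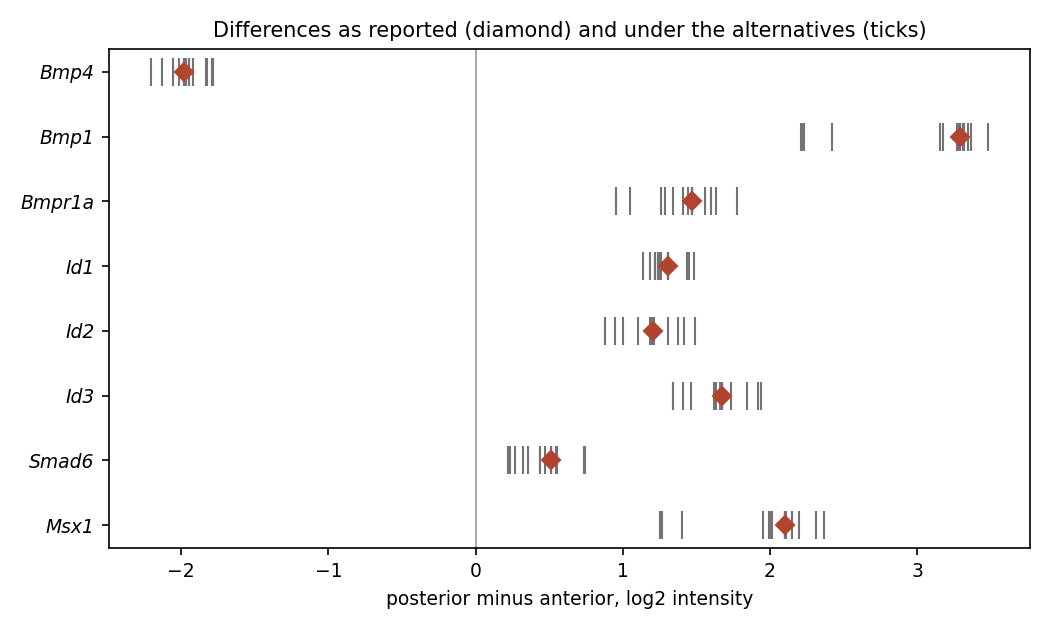
Posterior minus anterior difference of the 8 genes in log2 intensity, as reported (diamonds) and under each alternative way of processing or leaving out an array (ticks). Bmp4 stays between -2.21 and -1.78 and Id1 between 1.14 and 1.48, while Bmp1 and Msx1 fall into a group of larger and a group of smaller values.

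The rest of the pathway was described with 9 lists of 101 further genes, of which 56 had a named probe and 53 were tested. Of these, 28 were higher (52.8%), 9 were lower (17%) and 16 did not pass, beside 25.9% higher and 21.5% lower among all tested genes. Their median difference was 0.60, against 0.03 for all. No anterior array detected 5 of them, Rgma, Fst, Gata3, Tbx2 and Cdx2, which were tested through the posterior arrays and could hardly have come out lower. Among the 39 detected on all 6 arrays, 16 were higher and 9 lower. Fold sizes and bounds below hold on the background-corrected scale, and for 19 of the 37 called genes the log2 difference was over 1.5 times larger than without that correction.

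Among 5 other ligand genes, 2 were higher and 1 was lower. Bmp7, a ligand of limb ridge and mesenchyme, averaged 6.57 ± 0.33 in posterior and 5.07 ± 0.56 in anterior (SD, n = 3 each), 2.82-fold higher (adjusted p = 0.00321 in limma). Bmp8b was 1.52-fold higher, and no longer passed in the authors' values (adjusted p = 0.0602) or with the arrays scaled to a common median (0.0823, both in limma). Gdf3, a ligand of early embryos and stem cells, averaged 6.67 ± 0.20 in posterior and 10.01 ± 0.24 in anterior (SD, n = 3 each), 10.2-fold lower (adjusted p = 3.54e-06 in limma). Bmp8a (log2 -0.03) and Gdf1 (log2 -0.36) did not pass.

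Among genes for the processing of ligands and collagen, 1 of 5 was higher and 3 were lower. Furin, a convertase that cuts BMP precursors, was 2.32-fold higher, and Pcsk6, a second convertase, 2.38-fold lower. The procollagen C-proteinase enhancers, which help the protease encoded by Bmp1 to cleave collagen, moved opposite to Bmp1. Pcolce2 was 9.11-fold lower, at 5.30 ± 0.19 in posterior and 8.49 ± 0.29 in anterior (SD, n = 3 each), and Pcolce was 2.41-fold lower.

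Of 7 receptor genes 6 were higher, with none lower and Eng not passing (log2 0.17), beside 25.9% higher among all tested genes. Rgma and Bmpr2 were not detected on all anterior arrays, and of the 5 receptor genes detected on all 6 arrays 4 were higher. The co-receptor gene Tgfbr3 was 2.91-fold higher (log2 1.54, SE 0.20), and Rgma, a co-receptor gene undetected in anterior, at least 1.86-fold higher. Bmpr2, the type II receptor gene, had a log2 difference of 1.90 (SE 0.56, adjusted p = 0.0240 in limma), and its arrays spread over 0.94 in posterior and 1.01 in anterior (SD). Its call was lost without posterior replicate 1 (adjusted p = 0.0686 in limma) or 2 (0.0656), and without anterior replicate 1 (0.0596) or 2 (0.0562). Acvr1, a type I receptor gene, and Acvr2b, a type II receptor gene, differed by 0.52 and 0.53. Both lost their calls without posterior replicate 2 (adjusted p = 0.0955 for Acvr1 and 0.0709 for Acvr2b in limma), posterior replicate 3 (0.0687 and 0.0823) or anterior replicate 1 (0.0669 and 0.0678). With a common median of the tested probes Acvr2b was not called either (log2 0.16, adjusted p = 0.515 in limma), nor with that of all probes (0.136). Neo1, which encodes a receptor for the Rgma product, was 1.83-fold higher by its brightest probe and not called by the mean of its probes (adjusted p = 0.120 in limma).

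Of the signal-carrying SMADs, Smad5 was 2.39-fold higher (log2 1.26, SE 0.14, adjusted p = 0.000188 in limma). Smad1 had a log2 difference of 0.56 and did not pass (adjusted p = 0.102 in limma). It passed without anterior replicate 2 (adjusted p = 0.0123 in limma), with array weights (0.0210) and with the replicate block (0.0338).

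Secreted antagonists and binding proteins had 4 of 8 genes higher and 1 lower. Fstl1, whose product binds BMP4, was 3.70-fold higher, and Twsg1, whose product binds both BMPs and chordin, 2.74-fold higher. Htra1, a secreted protease gene, was 1.72-fold lower, at 5.83 ± 0.08 in posterior and 6.61 ± 0.21 in anterior (SD, n = 3 each). Scaled to a common median of all probes, Htra1 was not called (adjusted p = 0.0882 in limma). Chrd, the chordin gene, had a log2 difference of 0.46 (adjusted p = 0.0743 in limma), and it passed without anterior replicate 3 (adjusted p = 0.0455 in limma), with array weights (0.0176) and with a common median of all probes (0.0443). Fst, the follistatin gene, was at least 1.19-fold higher with adjusted p = 0.0494 in limma, and the call was lost without any 1 array other than posterior replicate 1 (0.0679 to 0.133). Kcp, a gene for a chordin-like protein, was 1.53-fold higher, and lost its call without posterior replicate 1 (adjusted p = 0.0931 in limma) or 3 (0.0874) and without anterior replicate 2 (0.0727) or 3 (0.0545). Nbl1 did not pass by its brightest probe (log2 -0.13). Its other probe, detected on no anterior array, passed as higher (log2 1.02, adjusted p = 0.00412 in limma). Nog, the noggin gene, was too dim to be tested.

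Membrane and intracellular inhibitors had 3 of 8 genes higher and 2 lower. Smurf1, a ubiquitin ligase gene whose product marks SMAD1 and SMAD5 for breakdown, was 2.31-fold lower (log2 -1.21, SE 0.17), and Nedd4l, a ligase gene of the same family, 1.88-fold lower. Ski, a SMAD corepressor gene, was 1.53-fold higher, Tob2 1.59-fold and Zeb2, which encodes a SMAD-binding repressor, 1.68-fold. The calls of Tob2 and Zeb2 were lost with the mean of their probes (adjusted p = 0.0985 and 0.126 in limma).

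Of 8 further genes known to respond to BMPs, 5 were higher and 1 was lower, but none of the 5 was detected on all anterior arrays. They passed the filter on dim signals mainly through the posterior arrays, so the count does not describe the list. Of the 3 genes detected on all 6 arrays, Tbx3 was lower and Hey1 (log2 -0.28) and Msx3 (log2 -0.21) did not pass. Dlx3, a homeobox gene of ectoderm, averaged 7.59 ± 0.19 in posterior and 4.89 ± 0.19 in anterior (SD, n = 3 each), 6.49-fold higher (adjusted p = 6.88e-06 in limma). Its log2 difference was 2.70, and 1.66 without background correction. The zinc finger gene Gata2, detected on 1 of 3 anterior arrays, had a log2 difference of 2.26, and of 1.31 without background correction. Gata3, also a zinc finger gene, was at least 4.95-fold higher on the background-corrected scale with an offset of 16. Its log2 difference there was 2.84, against 1.70 without background correction. The T-box gene Tbx2 and the homeobox gene Cdx2 were each at least 1.77-fold higher. Tbx3 was 3.17-fold lower (log2 -1.66, SE 0.12), and all 4 of its probes passed as lower. Among the E protein genes, Tcf12 was 2.41-fold higher and Tcf4 2.15-fold, while Tcf3 had a log2 difference of 0.50 (adjusted p = 0.127 in limma) and passed with a common median of all probes (0.0413). Tcf4 spread over 0.28 in posterior and 0.84 in anterior (SD), and its call was lost without any 1 posterior array (adjusted p = 0.0506 to 0.116 in limma) or without anterior replicate 1 (0.0505).

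**Figure D4:**
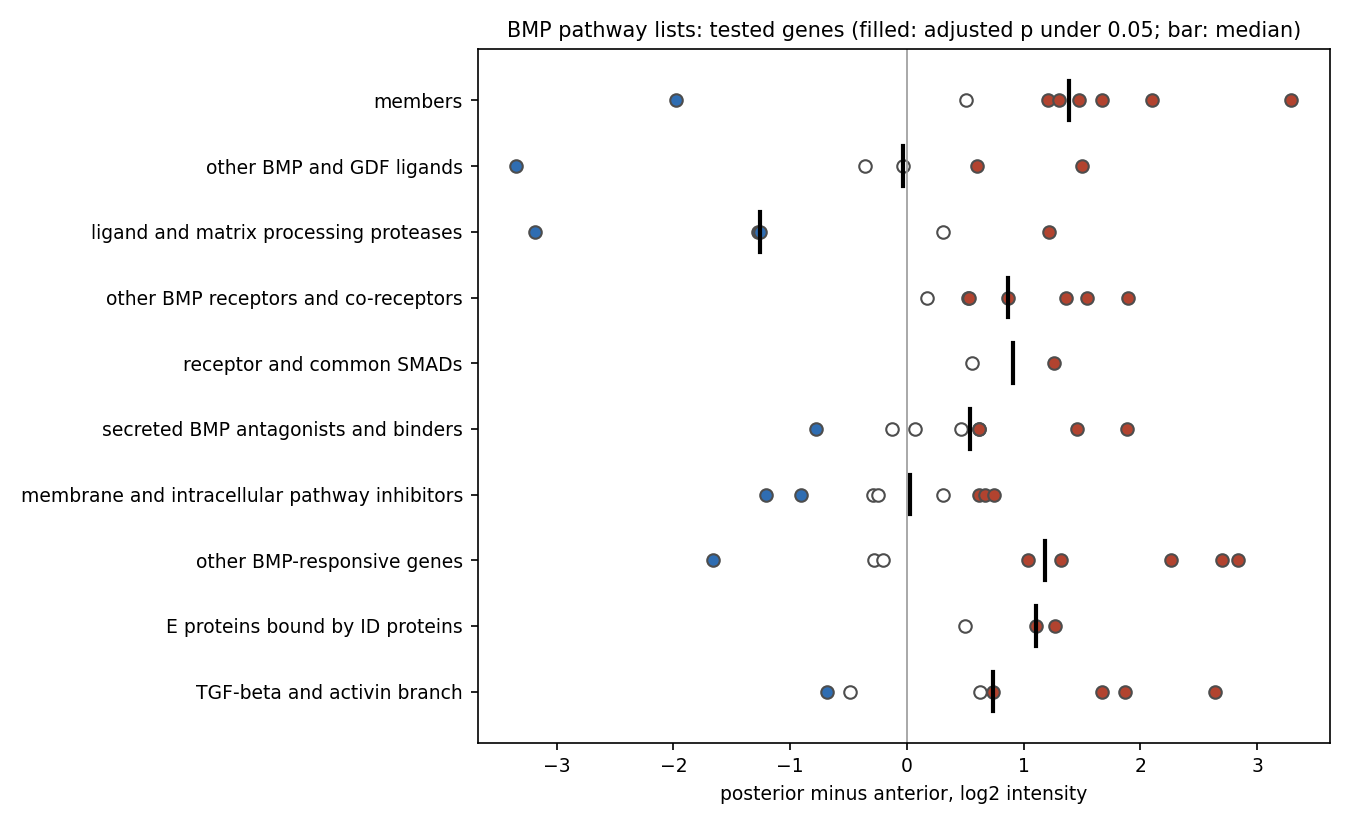
Posterior minus anterior difference of each tested gene, in log2 intensity, for the 8 BMP genes (top row, members) and the 9 further lists of pathway genes. Filled points passed an adjusted p of 0.05 (red higher, blue lower), and the black bar is the median of the list. The receptor row has no point left of 0, and the row of processing proteases has most of its points there.

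Markers of further cell types differed between the groups in part and in both directions, beside the pluripotency and limb mesenchyme markers given at the start. The counts stand beside 25.9% higher and 21.5% lower among all tested genes. Of 4 cartilage markers 3 were higher, with sums of 1011 to 2430 in posterior and 89.1 to 105 in anterior, where Sox9 was undetected. Of the 4, only Col2a1 was detected on all 6 arrays. Of 5 markers of limb ectoderm and ridge, 1 of 4 tested was higher (sums of 350 to 697 in posterior and 618 to 938 in anterior, with Wnt7a and Sp8 undetected in anterior). The bright Cdh1, which did not pass (adjusted p = 0.107 in limma), weighs most in these sums, as Pecam1 does in the anterior endothelial sums below. Of 4 endothelial markers 1 was higher and 2 were lower (sums of 121 to 200 in posterior, where Vwf was undetected, and 436 to 492 in anterior, where Flt1 was), and of 2 fibroblast markers 1 was lower (18.7 to 70.3 in posterior and 76.4 to 141 in anterior, where Dcn was undetected). The part of these cell types in the BMP results was not tested.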

How the data were processed

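The deposited table gave a linear intensity and a detection p-value for each of 45281 probes on 6 single-colour bead arrays. Undetected probes lay well above 0, so no background had been subtracted, and the array means differed. The authors' deposited log2 values, of 18312 probes, matched log2 intensities after quantile normalization of the same probes to within 5e-09. Limma is named, without a version, in the submitters' processing notes. Intensities were normalized here with neqc of limma 3.58.1 (R 4.3.3), with an offset of 16, which makes changes of dim probes smaller. Probes detected (p under 0.05) on 3 or more arrays, 18242 in all, were fitted with lmFit and eBayes, without a replicate block, and adjusted by Benjamini-Hochberg. Differences are posterior minus anterior. The script was tested on simulated data.

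Symbols came from the platform annotation, in which 15550 probes had 1 symbol and 9 had several. Each gene took the values of its brightest tested probe. Where all 3 arrays of a group failed to detect a probe, its fold is a bound, "at least", set against the higher of its own value and the lowest detected signal. These bounds belong to the offset of 16. Members and lists were chosen with earlier results of these data known. All members were named, and from each further list up to 6 called genes with the largest change and any gene with a bound. Genes that did not pass were named after their values were seen. The number of arrays limits the precision. Alternatives changed the background correction, offset, scaling, value source, filter, variance model, array weights, probe choice and block, or left out 1 array. Replicate numbers were not taken to pair the samples, and whether they do is not known.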

Additional observations from a re-analysis of the deposited data

How the results depend on the processing

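Directions of all 8 BMP genes were kept under the 17 alternatives that could be run for them (16 for Smad6, which is not detected on all 6 arrays). One alternative, scaling to a common median of all probes, was chosen after seeing the data. In every alternative 6 or 7 of these genes were higher and 1 was lower, the 7th being Smad6. Their median log2 difference, 1.39 as reported, was 1.09 without background correction and also 1.09 in the authors' values, 1.14 with an offset of 50, 1.30 with the mean of the probes and 1.63 with a common median of all probes. Leaving out 1 array gave 1.32 to 1.51, with 6 to 7 genes higher and 1 lower. The second Id2 probe lost its call without a filter on dim probes (adjusted p = 0.0823 in limma). Of the 53 other pathway genes 28 were higher as reported, 16 among those detected on all 6 arrays, where fewer genes were tested, and 23 to 27 without 1 array, with 8 to 9 lower. Without a filter on dim probes Bmpr2, Kcp, Tcf4 and Fst lost their calls (adjusted p = 0.134, 0.0798, 0.178 and 0.150 in limma), as did Bmpr2 and Tcf4 with trend and robust variances (0.0691 and 0.0816), Kcp with array weights (0.0585), Tcf4 with an offset of 50 (0.0516) and Zeb2 with a common median of the tested probes (0.0517). Fst was also not called without background correction (0.0703), with an offset of 50 (0.108), in the authors' values (0.204) or with a common median of the tested probes (0.309) or of all probes (0.0644). The cause was not tested. Scaling moved the background: 54.7% of the called genes were higher as reported, 44.1% with a common median of the tested probes and 72.1% with that of all probes, with the median of all genes at 0.03, -0.10 and 0.20. Deviations of samples that share a replicate number correlated at 0.29, 0.16 and -0.08, and those of different numbers at -0.41 to 0.34. These values cannot tell whether samples with the same number share a batch or culture. The SE of Id2 was 0.22 as reported and 0.14 with the replicate block, and that of Bmp1 was 0.15 in both. With the replicate block the median stayed at 1.39, with 6 genes higher, 1 lower and 29 other pathway genes higher, Smad1 being the further one (adjusted p = 0.0338 in limma). Signals near background limit the sizes for Msx1, Bmp1 and Smad6 in anterior.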

Other observations

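The TGF-beta and activin branch, which uses SMAD2 and SMAD3 in place of the BMP SMADs, had 4 of 7 tested genes higher in posterior and 1 lower. Among all tested genes 25.9% were higher and 21.5% lower. Smad3 was 6.25-fold higher (log2 2.64, SE 0.20, adjusted p = 2.52e-05 in limma). The receptor genes Tgfbr2 and Tgfbr1 were 3.65-fold and 3.18-fold higher, and Smad2 1.67-fold. Tgfbr2 was detected on 1 of 3 anterior arrays, and its log2 difference was 1.87, against 1.03 without background correction. Acvr1b, an activin receptor gene, was 1.61-fold lower. Its call was lost without posterior replicate 1 (adjusted p = 0.0816 in limma) or 2 (0.104), without anterior replicate 2 (0.0568) or 3 (0.0751), without a filter on dim probes (0.0900) and with a common median of all probes (0.270).

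The 5 tested genes whose profile over the 6 arrays was most like that of Bmp4 were Napsa, Atp1b1, Fn1, Hsd17b11 and Gldc. Likeness was the root-mean-square difference of log2 values, each gene centred on its own mean, and it was 0.13 for Napsa and 0.19 for Gldc among 9907 genes. Fn1, the fibronectin gene, averaged 8.25 in posterior and 10.11 in anterior, a log2 difference of -1.86. The 6 arrays fall into 2 groups, so likeness here mostly reflects a group difference of similar size.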
